A study of Homo sapiens with 8 samples.

Results

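TTR, NPR3, SCRG1, SAMD11 and F2R are 5 genes with large rises in a derivative of MEL202, a human line from uveal melanoma, and this account follows them through the 4 MEL202 lines of the study. They were chosen by their RNA values in the knockout line against parental cells, so that contrast is given for them as a description only. Each symbol was matched to the locus of that name with the highest mean over the 8 libraries, which gave 5 loci of 32087 in the table. MEL202 carries a mutation in SF3B1, a core splicing factor that takes part in recognition of the branch point. Parental cells are the untagged starting line. In the knockout line the mutant SF3B1 allele was knocked out, in the mutant degron line a destabilising domain (DD) was placed on mutant SF3B1, and the wildtype degron line carries the same domain on wildtype SF3B1. Every line was sampled once with Shld, the ligand that keeps DD-tagged protein from being degraded, and once without it. The labels give 2 days for all libraries of the 3 derived lines. The data columns differ from the labels: those of the knockout line also name a DD on wildtype SF3B1, and 4 days without Shld, a time also given for parental cells without Shld. Each derived line is represented by 1 line, tagged as a clone in the labels, so the edited allele and the clone cannot be told apart.

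Below, a pair of values for a line gives the library with Shld first and the one without it second. The values are rescaled FPKM, that is fragments per unit of transcript length, with the 75th percentile of each library set to 10. The sum over all loci ran from 762679 to 961994, and the depth in reads is unknown. SF3B1 had 266 and 240 in the parental pair, 158 and 138 in the knockout pair, 248 and 252 in the mutant degron pair and 188 and 201 in the wildtype degron pair. Pigment cell markers were present in all 4 lines: each of the 11 measured melanocyte markers of 12 was at 1 or more in every library. Their summed level was 12096 to 13106 in parental cells, 6564 to 7309 in the knockout line, 7680 to 9284 in the mutant degron line and 14446 to 15698 in the wildtype degron line. In bulk RNA a smaller number of cells expressing a gene and less RNA per cell cannot be told apart.

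The 5 genes come from unrelated families. TTR encodes transthyretin, a secreted carrier of thyroid hormone and, through retinol-binding protein, of vitamin A, known from liver, choroid plexus and the retinal pigment epithelium. SCRG1 encodes a small secreted cysteine-rich protein linked to cartilage formation. NPR3 is the natriuretic peptide clearance receptor, which binds the peptides and takes them into the cell without the cyclase domain of its relatives. F2R is the protease-activated receptor that thrombin cleaves and that signals through G proteins. SAMD11 encodes a nuclear protein with a SAM domain, known from photoreceptors.

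All 5 genes were high in 2 of the 3 derived lines, the knockout and the mutant degron line, and lay within or below the parental range in the wildtype degron line. This held with and without Shld. The plot of levels by library shows the same arrangement in every panel.

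**Figure D1:**
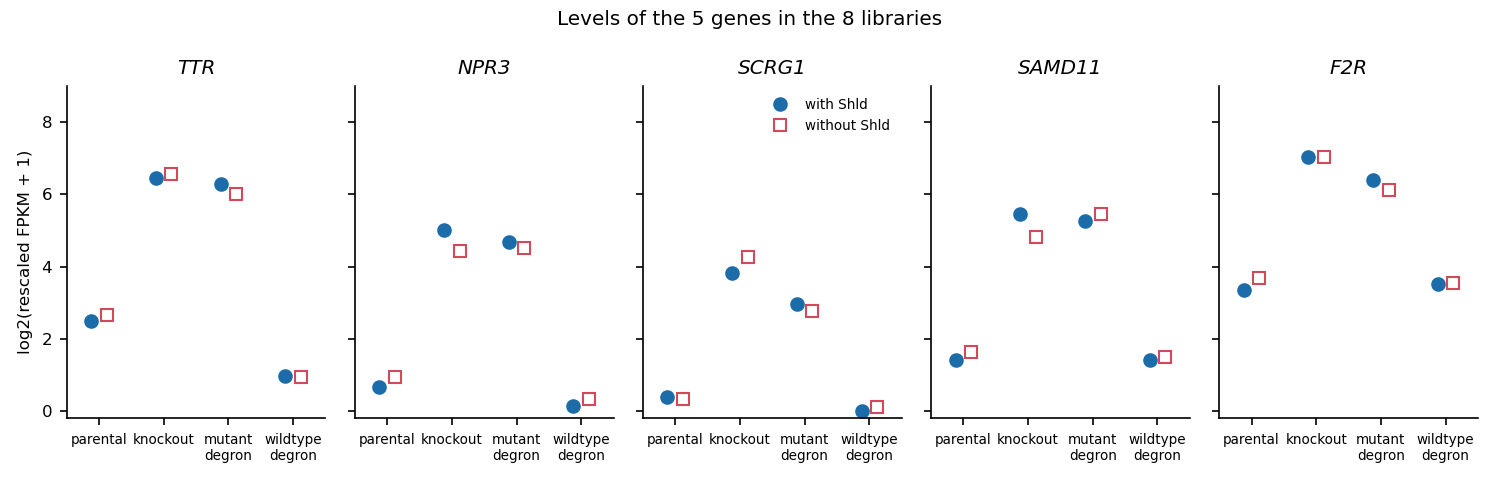
Level of each gene as log2(rescaled FPKM + 1) in the 4 lines, with 1 point for each library with Shld (filled circles) and without Shld (open squares). In all 5 genes the knockout and mutant degron points lie above the parental and wildtype degron points, and SCRG1 is listed at 0 in the wildtype degron line with Shld.

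TTR had 4.66 and 5.28 in the parental pair. The knockout pair read 87.3 and 93.7 and the mutant degron pair 76.7 and 62.9. The wildtype degron pair read 0.973 and 0.929, below both parental libraries. The knockout mean was 18.2 times and the mutant degron mean 14.0 times the parental mean. The wildtype degron mean was 0.191 times the parental mean. The lowest mutant degron library was 64.6 times the highest wildtype degron library for TTR. This ratio was 84.4 for NPR3, 20.6 for SAMD11 and 6.47 for F2R. For SCRG1 it was 79.3, taken against the wildtype degron library that is not listed at 0. The NPR3 and SCRG1 ratios rest on wildtype degron values of 0.259 and 0.0738, near 0 at an unknown depth.

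SCRG1 was near 0 in parental cells, at 0.321 with Shld and 0.258 without. It had 13.2 and 18.3 in the knockout pair and 6.87 and 5.85 in the mutant degron pair. The wildtype degron line had 0.0738 without Shld and was listed at 0 with it. The 4 high libraries therefore fall into 2 steps, with both knockout libraries above both mutant degron libraries and a ratio of means of 2.48.

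NPR3 had 0.601 and 0.907 in the parental pair, 31.4 and 20.4 in the knockout pair, and 24.5 and 21.9 in the mutant degron pair. The wildtype degron pair read 0.111 and 0.259. The mutant degron libraries lay between the 2 knockout libraries, so the lines with the gain were not separated for this receptor.

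F2R was already expressed in parental cells, at 9.22 with Shld and 11.9 without. It had 131 and 130 in the knockout pair and 83.2 and 68.5 in the mutant degron pair, 12.3 and 7.18 times the parental mean. The wildtype degron libraries, at 10.4 and 10.6, lay between the parental ones.

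SAMD11 had 1.67 and 2.12 in the parental pair, 42.9 and 27.1 in the knockout pair, and 37.1 and 42.7 in the mutant degron pair. The wildtype degron pair read 1.67 and 1.80. As with NPR3, the mutant degron libraries fell within the range of the knockout libraries. In RefSeq the SAMD11 gene overlaps NOC2L, a gene of ribosome assembly, and whether strand was used in counting is not given in the sources used here. NOC2L followed another order, at 67.3 and 77.8 in parental cells, 91.2 and 100.95 in the knockout pair, 75.12 and 73.5 in the mutant degron pair and 97.5 and 112 in the wildtype degron pair. A second locus named SAMD11 had 0.105 and 0.136 in parental cells, 3.19 and 2.03 in the knockout pair, 2.19 and 2.48 in the mutant degron pair, and 0.0265 and 0.0261 in the wildtype degron pair. It thus had the same arrangement at a lower level.

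Against all 12921 loci with a mean of at least 1, the knockout less parental difference put TTR at rank 11, NPR3 at 12, SCRG1 at 14, SAMD11 at 15 and F2R at 18. These ranks describe the choice: the model differences were 3.94, 3.91, 3.68, 3.603 and 3.51 in log2(value + 1), and 16.0% of all loci were called higher in that contrast. All 5 genes passed the level filter, but NPR3 and SCRG1 did so through the knockout and mutant degron lines, with parental values below 1. Both knockout libraries lay above both mutant degron libraries for TTR, SCRG1 and F2R, an arrangement found at 29.8% of loci, and not for NPR3 and SAMD11.

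The mutant degron line was set against the wildtype degron line, since none of these 4 libraries belongs to the contrast that picked the genes. The locus taken for each symbol and the level filter did use the mean over all 8 libraries, and the genes were picked with earlier results of these data in view. All 5 genes were higher in the mutant degron line, where 21.6% of all loci were called higher and both mutant degron libraries lay above both wildtype degron libraries at 38.4% (limma, Benjamini-Hochberg adjusted p below 0.05). The difference in log2(value + 1) was 5.17 ± 0.11 (standard error) for TTR, with an adjusted p of 1.3e-06. NPR3 differed by 4.35 ± 0.20 (adjusted p = 3.2e-05) and SAMD11 by 3.90 ± 0.20 (adjusted p = 4.4e-05). SCRG1 differed by 2.83 ± 0.18 (adjusted p = 8.7e-05) and F2R by 2.73 ± 0.13 (adjusted p = 3.5e-05). Of the 12921 loci, TTR stood at rank 3 in this contrast, NPR3 stood at rank 6, SAMD11 at 10, SCRG1 at 38 and F2R at 46. With the 4 degron libraries fitted alone, the adjusted p lay between 0.0012 and 0.0015 for the 5 genes. The 2 libraries of a line differ in Shld and stand in for replicates, and separate cultures are not stated, so the p-values reflect how far these libraries scatter, which may be technical.

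Against parental cells, the mutant degron line was higher in all 5 genes, a contrast with 9.67% of loci called higher. The differences were 3.82 for SAMD11, 3.79 for NPR3, 3.56 for TTR, 2.73 for F2R and 2.51 for SCRG1, with adjusted p between 7.2e-06 and 0.00022 (limma). This contrast shares the parental libraries with the one that chose the genes. The lowest mutant degron library was 24.1 times the highest parental library for NPR3, the largest such ratio of the 5, and 5.75 times for F2R, the smallest.

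In the wildtype degron line against the same parental libraries, TTR fell by 1.61 ± 0.11 (limma, adjusted p = 0.0014), in a contrast with 19.7% of loci called lower. With the spread taken from the parental pair alone its adjusted p was 0.080. NPR3 was at -0.56 ± 0.20, with an unadjusted interval of -1.04 to -0.09 and an adjusted p of 0.063, and SCRG1 at -0.32 ± 0.18 (adjusted p = 0.20). NPR3 passed in 4 of 17 other settings and SCRG1 in 1. Both wildtype degron libraries lay below both parental libraries for TTR, NPR3 and SCRG1, as at 37.9% of all loci. SAMD11 and F2R did not pass, and their intervals in this contrast, -0.55 to 0.39 and -0.30 to 0.31, include 0. The plot of line differences sets these 3 contrasts side by side.

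**Figure D2:**
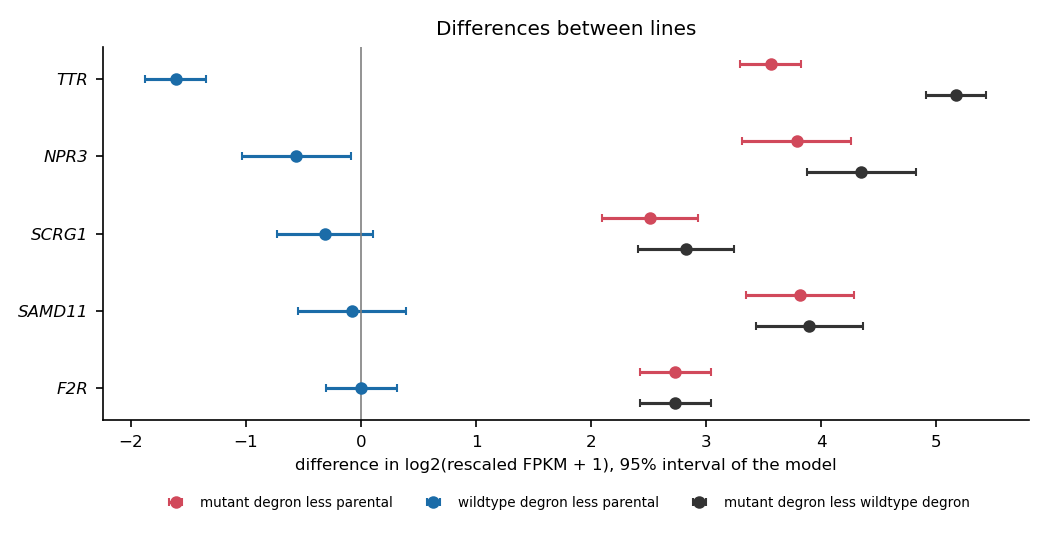
Model difference in log2(rescaled FPKM + 1) between lines for each gene, with 95% intervals. The mutant degron line lies above parental cells and above the wildtype degron line in all 5 genes, while the wildtype degron line lies below parental cells for TTR. Its unadjusted interval excludes 0 for NPR3 as well and includes 0 for SCRG1, SAMD11 and F2R.

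Removal of Shld for days changed none of the 5 genes past the threshold in any derived line, where 0.186% of loci passed in the knockout line, 0.186% in the mutant degron line and 0.0155% in the wildtype degron line. The largest differences were in the knockout line: SAMD11 at -0.64 ± 0.18 (limma, adjusted p = 0.55), NPR3 at -0.60 ± 0.20 (adjusted p = 0.55) and SCRG1 at 0.44 ± 0.15 (adjusted p = 0.55). At an unadjusted p below 0.05 SAMD11 in the knockout line passed, at 0.034, and no other difference of these genes did in the 3 lines. In the mutant degron line, loss of the stabilising ligand left the differences between -0.28 for TTR and 0.20 for SAMD11, each with an adjusted p of 1. Those intervals reach from -0.96 to 0.75, while the smallest difference between the degron lines among the 5 genes was 2.73. In the wildtype degron line the differences ran from -0.03 for TTR to 0.18 for NPR3. The parental pair, which supplied the spread of this test, differed by -0.07 for SCRG1 to 0.34 for F2R.

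**Figure D3:**
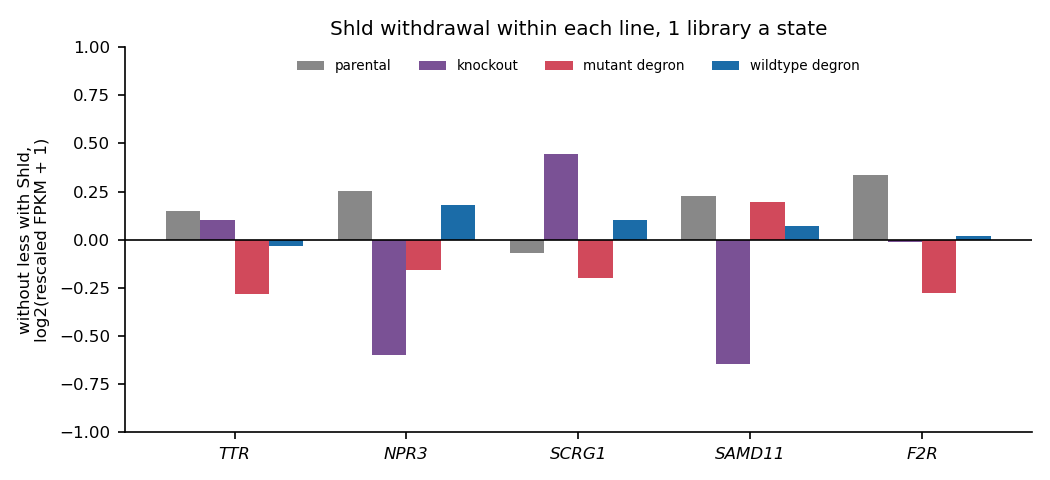
Difference without less with Shld in log2(rescaled FPKM + 1) for each gene in each line, from 1 library a state, so the bars carry no error. All bars lie between -0.64 and 0.44, and the knockout line has the longest bars for NPR3, SCRG1 and SAMD11.

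The genes most like each of the 5 were taken by Pearson correlation of log2(value + 1) over the 8 libraries, among 244 loci with a single name, a mean of at least 5 and a range of at least 2 on that scale. The points share their libraries and form a high and a low cluster, and the correlations are a description over both. For NPR3 the closest was SAMD11 (r = 0.994), followed by SGK223, a pseudokinase gene (0.993), and RASL11B (0.991). For SAMD11, SGK223 and NPR3 both came to 0.994. For TTR the closest were RASL11B, a small GTPase gene (0.987), COL19A1, a collagen gene (0.987), and NPR3 (0.984). SCRG1 and F2R shared NRCAM, a neural adhesion gene (0.998 and 0.995), and EML6 (0.997 and 0.994). Their remaining look-alikes were GADD45B, a stress response gene, for SCRG1 (0.994) and KITLG, the ligand of the KIT receptor, for F2R (0.998). KITLG had 1.81 and 2.19 in the parental pair, 13.9 and 12.2 in the knockout pair, 9.87 and 8.78 in the mutant degron pair and 1.79 and 1.88 in the wildtype degron pair. ID1, an inhibitor of differentiation factors, was the third for SAMD11 (0.991). Among the 5 themselves the lowest correlation was that of SCRG1 with SAMD11 (0.943).

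Position on the chromosome was examined through the 3 nearest protein-coding genes on each side in RefSeq's gene order. Only genes named among the deposited loci were counted, and others between them were passed over. Of these 30 neighbours 18 could be tested. TTR lies next to B4GALT6, which encodes a galactosyltransferase of lactosylceramide synthesis, and this neighbour shared the gain. B4GALT6 had 4.51 and 4.997 in the parental pair, 50.4 and 39.6 in the knockout pair, 19.5 and 19.6 in the mutant degron pair and 3.63 and 3.64 in the wildtype degron pair. It was higher by 2.15 in the mutant than in the wildtype degron line (limma, adjusted p = 5.1e-05). The nearest such gene before F2R was IQGAP2, a scaffold protein gene. It had 7.37 and 8.01 in the parental pair and 32.6 and 30.4 in the knockout pair. The mutant degron pair read 27.3 and 22.4 and the wildtype degron pair 9.36 and 9.79. IQGAP2 was higher by 1.28 in the mutant than in the wildtype degron line (adjusted p = 0.00025).

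The other neighbours did not move as far, but SUB1, the nearest such gene before NPR3, came close to IQGAP2 between the degron lines. SUB1 was higher by 1.21 in the mutant than in the wildtype degron line (limma, adjusted p = 0.00077). It had 121 and 114 in the mutant degron pair and 47.5 and 52.5 in the wildtype degron pair. The parental pair read 116 and 87.1 and the knockout pair 111 and 97.7, so SUB1 did not share the knockout gain. F2RL1, the thrombin receptor relative beside F2R, stayed at or below 1.05 in all 8 libraries, and DSG2, a desmoglein gene on the other side of TTR, stood at 27.6 to 55.1. Of the 18 tested neighbours, 5 were called higher and 1 lower in the knockout line against parental cells, where 16.0% and 19.0% of all loci were. In the mutant degron line against parental cells 3 were higher and 0 lower, beside 9.67% and 12.3%. Between the degron lines 10 were higher in the mutant and 3 lower, beside 21.6% and 24.2%, and in the wildtype degron line against parental cells 2 were higher and 6 lower, beside 18.5% and 19.7%.

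**Figure D4:**
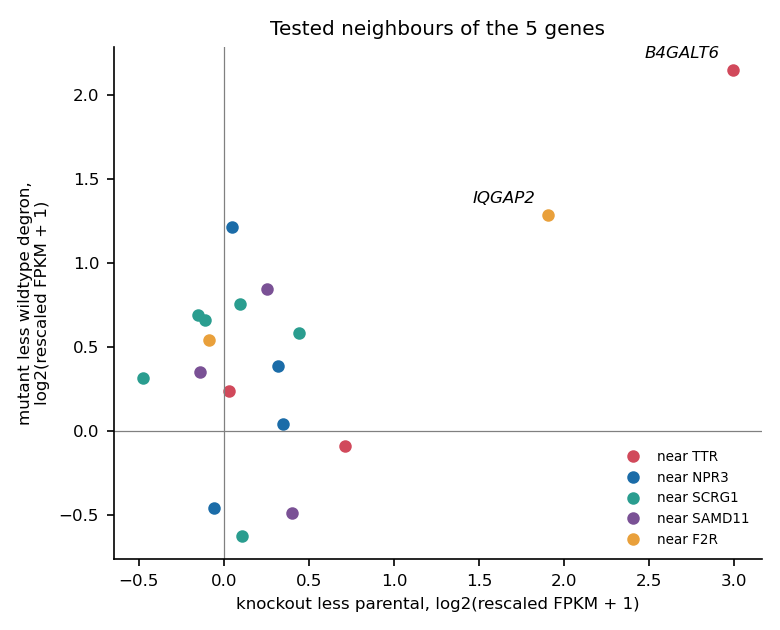
Differences in log2(rescaled FPKM + 1) of the 18 tested neighbours, knockout less parental on the horizontal axis and mutant degron less wildtype degron on the vertical axis, which share no library. B4GALT6, near TTR, and IQGAP2, near F2R, lie apart at the upper right, and the others lie below 1 on the horizontal axis.

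Promoter letters were compared for the genes found in RefSeq's promoter table (GRCh38.p14), which gave NPR3, SCRG1 and SAMD11. They are shown because these 3 genes rise in the same 2 lines from parental levels near 0 to 2. Each line gives the 250 bases before the start site on the gene's strand, for NPR3 at chr5:32710399-32710648 (plus strand), for SCRG1 at chr4:173399117-173399366 (minus strand) and for SAMD11 at chr1:925481-925730 (plus strand). Capitals mark a match to a searched motif.
NPR3: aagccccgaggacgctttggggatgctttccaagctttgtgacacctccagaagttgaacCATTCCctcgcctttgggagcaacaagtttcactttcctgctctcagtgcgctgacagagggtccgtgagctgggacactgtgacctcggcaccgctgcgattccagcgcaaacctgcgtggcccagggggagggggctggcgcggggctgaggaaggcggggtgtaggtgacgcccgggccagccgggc
SCRG1: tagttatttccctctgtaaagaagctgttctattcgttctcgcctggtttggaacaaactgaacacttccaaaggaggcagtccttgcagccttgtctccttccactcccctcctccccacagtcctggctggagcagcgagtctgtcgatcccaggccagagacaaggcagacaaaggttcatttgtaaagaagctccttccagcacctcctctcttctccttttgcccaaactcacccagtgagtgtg
SAMD11: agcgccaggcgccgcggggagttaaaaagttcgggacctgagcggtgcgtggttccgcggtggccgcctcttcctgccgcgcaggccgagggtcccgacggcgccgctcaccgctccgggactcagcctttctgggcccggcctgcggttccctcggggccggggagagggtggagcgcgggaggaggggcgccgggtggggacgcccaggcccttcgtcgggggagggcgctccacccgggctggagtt

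The 3 promoters differ in base composition. SAMD11 had 75.6% G and C with 32 CpG dinucleotides, NPR3 64.0% with 16, and SCRG1 51.6% with 4, against medians of 58.0% and 11 over 35116 promoters. The motifs searched on both strands were GGAATG (TEAD), TGANTCA (AP-1), CACGTG (MITF) and AACAAT (SOX), with TATAAA on the gene's strand only. The TEAD letters were found once, in NPR3 at -190, and are in 11.9% of all such promoters. A match is a description of the letters only. A second RefSeq start of NPR3 held the SOX letters, which are in 8.98% of promoters.

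The partners of TTR were measured through 34 genes of thyroid hormone and retinoid transport, of which 20 entered the test. Between the degron lines 6 were higher in the mutant and 6 lower, where 21.6% and 24.2% of all loci were, with a median of -0.09 beside -0.004 for all loci. RBP4, the retinol-binding partner of transthyretin, was at or below 0.259 in every library. CYP26A1, a retinoic acid hydroxylase, was higher in the mutant degron line by 1.79 ± 0.19 (limma, adjusted p = 0.00063). It had 3.88 and 3.68 in the parental pair and 7.56 and 6.17 in the mutant degron pair, but 0.148 and 0.177 in the knockout pair and 1.68 and 0.922 in the wildtype degron pair. Its order over the lines thus differed from that of TTR. RDH10, a retinol dehydrogenase, had 3.40 and 3.58 in the parental pair, 8.86 and 7.32 in the knockout pair, 14.4 and 10.5 in the mutant degron pair and 3.48 and 3.22 in the wildtype degron pair. Lower in the mutant than in the wildtype degron line were LRP2, an endocytic receptor (-2.48 ± 0.19), LRAT, which esterifies retinol (-1.16), CRABP2, a retinoic acid binding protein (-1.12), and the thyroid hormone receptor gene THRA (-1.04). The other thyroid hormone receptor gene, THRB, fell below the level filter and was not tested. THRB had 0.128 and 0.119 in the parental pair and 1.58 and 2.34 in the knockout pair. Its mutant degron pair read 1.01 and 0.420 and its wildtype degron pair 0.274 and 0.135.

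In natriuretic peptide and cGMP signalling, 10 of 21 genes were tested, with 2 higher and 5 lower in the mutant than in the wildtype degron line, beside 21.6% and 24.2% of all loci. The median was -0.21, beside -0.004 for all loci. NPR2, the guanylyl cyclase receptor that shares ligands with NPR3, ran opposite to it. NPR2 had 2.37 and 2.70 in the parental pair, 0.127 and 0.158 in the knockout pair, 0.0125 with Shld and 0 as listed without it in the mutant degron line, and 8.39 and 7.66 in the wildtype degron pair. It was lower in the mutant than in the wildtype degron line by 3.16 ± 0.16 (limma, adjusted p = 3.9e-05) and lower than in parental cells by 1.81. NPR1, the other cyclase receptor, was at or below 0.150 in all libraries. PRKG1, the cGMP-dependent kinase, was higher in the mutant degron line than in the wildtype degron line by 1.30 ± 0.13, and had 40.5 and 41.3 in the parental pair, 114 and 146 in the knockout pair, 89.3 and 94.4 in the mutant degron pair and 40.2 and 33.4 in the wildtype degron pair. Among phosphodiesterases PDE3B was higher by 1.10 and PDE3A and PDE9A were lower by 1.14 and 0.75. The peptidase MME, which degrades natriuretic peptides, was lower by 0.96.

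Of 26 genes of cartilage and its matrix, 11 were tested beside SCRG1. In the knockout line against parental cells 8 were higher and 0 lower, beside 16.0% and 19.0% of all loci, with a median of 1.06 beside -0.04. In the mutant degron line against parental cells 6 were higher and 2 lower, beside 9.67% and 12.3%, with a median of 0.39 beside -0.04. The wildtype degron line, without the SCRG1 gain, had 4 higher (SOX6, COL11A1, MATN2 and BMP4) and 0 lower against parental cells, beside 18.5% and 19.7%, with a median of 0.27 beside -0.01. Between the degron lines 4 were higher in the mutant and 2 lower, beside 21.6% and 24.2%, with a median of 0.12 beside -0.004. The fibrillar collagen gene COL11A2 had 3.51 and 2.84 in the parental pair, 13.7 and 10.2 in the knockout pair, 14.7 and 13.6 in the mutant degron pair and 3.04 and 2.36 in the wildtype degron pair, a difference of 2.04 ± 0.16 between the degron lines (limma, adjusted p = 0.00021). COL9A3 and COL11A1 were higher by 1.41 and 1.35, and the integrin gene ITGB1 by 0.52. BMP4, a growth factor gene, was lower by 1.14 and COL9A1 by 0.73. SOX9, the cartilage transcription factor, was called higher in the knockout line against parental cells and in neither degron line, at 6.86 and 9.77 against 3.57 and 3.25, and had 4.29 and 4.13 in the mutant degron pair. Whether the knockout and mutant degron lines differ in SOX9 was not tested.

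For F2R, 15 of 34 genes of coagulation and thrombin signalling were tested, with 4 higher and 9 lower in the mutant than in the wildtype degron line, beside 21.6% and 24.2% of all loci. The median was -0.35, beside -0.004 for all loci. Thrombin itself (F2) was at or below 0.0318 in every library, and tissue factor (F3) at or below 0.442. PLCB2, a phospholipase, was higher by 2.53 ± 0.16 (limma, adjusted p = 7.5e-05), but had 1.16 and 0.985 in the knockout pair against 6.77 and 5.68 in parental cells. SERPINE2, an inhibitor of thrombin, was higher by 1.12, the pathway inhibitor TFPI by 1.09 and plasminogen activator PLAT by 0.60. The 9 lower genes were G protein subunits, exchange factors, phospholipases and arrestins, led by ARHGEF1 (-0.82), ARHGEF12 (-0.72), ARRB1 (-0.69) and PLCB4 (-0.49). In the knockout line against parental cells 2 of the 15 were higher and 2 lower, beside 16.0% and 19.0% of all loci.

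Of 31 Polycomb and SAM-domain genes listed with SAMD11, 25 were tested, with 5 higher and 7 lower in the mutant than in the wildtype degron line, shares near the 21.6% and 24.2% of all loci. The median was -0.05, beside -0.004 for all loci. SCML1 was higher by 3.30 ± 0.20 (limma, adjusted p = 7.5e-05). It was at 0.0623 with Shld and listed at 0 without it in the wildtype degron line and at 4.37 to 9.34 in the other 6 libraries. EZH2, the histone methyltransferase, was higher by 0.98, and BMI1 and PCGF6 by 0.67 and 0.53. CBX6, PHC1 and CBX7, members of Polycomb complexes, were lower by 1.16, 0.71 and 0.64. In the knockout line against parental cells 0 were higher and 4 lower, beside 16.0% and 19.0% of all loci. None of the 5 pathway lists had a member past the threshold on Shld withdrawal in any of the 3 derived lines. Of all loci only 0.186% passed in the knockout line, 0.186% in the mutant degron line and 0.0155% in the wildtype degron line.

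Markers of tissues in which these genes are known were examined beside the gains. Of 10 retinal pigment epithelium markers RPE65 and OTX2 were listed at 0 in all libraries, and the summed level was 701 to 708 in parental cells, 317 to 339 in the knockout line, 441 to 482 in the mutant degron line and 871 to 889 in the wildtype degron line, most of it from SERPINF1 and RDH5. TRPM3, a low gene of that list, ran opposite to the sum. It had 0.369 and 0.394 in the parental pair and 3.22 and 1.82 in the knockout pair. The mutant degron pair read 3.54 and 3.83 and the wildtype degron pair 0.129 and 0.333. The 10 measured hepatocyte markers summed to at most 1.94, with HNF4A listed at 0, and the 5 photoreceptor markers to at most 0.987. The 8 choroid plexus markers summed to 5.26 to 8.77. Fibroblast markers, 5 of 9 measured, summed to 23.4 to 33.2 in parental cells, 3.38 to 3.58 in the knockout line, 8.20 to 10.0 in the mutant degron line and 13.0 to 15.3 in the wildtype degron line. Endothelial and leukocyte markers summed to at most 1.62 and 1.22. Glial and neuronal markers moved with the gains, with 9 of 9 measured and sums of 455 to 469 in parental cells, 725 to 777 in the knockout line, 626 to 671 in the mutant degron line and 428 to 464 in the wildtype degron line. The part of these markers, and of the lower summed melanocyte level, in the gains was not tested. That melanocyte sum came mostly from PMEL, TYRP1 and MLANA, and not every marker in it was lower. S100B had 88.8 and 70.1 in the parental pair and 122 and 112 in the mutant degron pair. In the knockout pair it had 20.7 and 33.8.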

How the data were processed

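RNA was sequenced from 8 MEL202 libraries, 4 lines with and without Shld, 1 library a state. TopHat and Cufflinks with hg19 were named in the list of tools, per the submitters' processing notes, with versions, annotation and strand setting not given. A single table was deposited by the authors, holding FPKM-type values, rescaled so that the 75th percentile was 10 (9.99 to 10.00). That FPKM was the input is inferred from Cufflinks and the values, and reads per library are unknown. Of the table, 13430 to 14080 loci a library are listed at 0, which can be a failed estimate.

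Values were analysed as log2(value + 1), which understates the change of low genes, over 12921 loci with a mean of at least 1. Lines were compared with limma 3.58.1 in R 4.3.3 (line means, trended empirical Bayes, 4 residual and 3.46 prior degrees of freedom). Shld withdrawal was tested with the spread of the parental pair (1 residual degree of freedom), so each derived library is assumed to vary like that pair. P-values were adjusted over all loci by the Benjamini-Hochberg method at 0.05. Both fits were tested on simulated data. The members and gene lists were chosen with earlier results of these data known. Named genes are the 5 members, up to 4 list genes in each direction past the threshold and the 3 loci most like each member. They include the 3 nearest protein-coding genes on each side that are named among the deposited loci, and SF3B1. Others (partner receptors and ligands, SOX9, marker genes) were chosen after their values were seen. Alternatives were other pseudocounts, filters, scalings and designs and leaving out each library. Some genes that the rule or the marker lists name are not reported here.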

Additional observations from a re-analysis of the deposited data

Results flagged for a closer look

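The degron lines differed from each other in all 5 genes, under the same setting against parental cells and by the direct test between them (limma, log2(value + 1)). The mutant less wildtype degron difference was 5.17 for TTR, 4.35 for NPR3, 3.90 for SAMD11, 2.83 for SCRG1 and 2.73 for F2R, with both mutant degron libraries above both wildtype degron libraries each time. Of all loci, 21.6% were called higher in this contrast and 38.4% had that order of libraries. With single libraries per state, no group was large enough to look for a sample far from the others.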

How the results depend on the processing

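All 5 genes stayed higher in the mutant than in the wildtype degron line, past the threshold, in 18 other settings each (adjusted p at most 0.026), and higher in the mutant degron line than in parental cells in 17 (at most 0.039). The exceptions concerned the wildtype degron line against parental cells: TTR missed the threshold with the spread of the parental pair alone (adjusted p = 0.080), and NPR3 and SCRG1 passed it in 4 and 1 settings. SAMD11 and F2R lay on either side of 0 there, from -0.19 to 0.04 and from -0.17 to 0.17. No Shld difference of the 5 genes passed in 6 other settings (limma).

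Counts of loci past the threshold moved more. With the spread of the parental pair alone, 1978 loci passed for knockout against parental, 286 for mutant degron and 1 for wildtype degron against parental, and 2794 between the degron lines, against 4520, 2841, 4941 and 5917. With 1 library left out these 4 counts ran from 2600 to 4235, 706 to 3206, 2010 to 5403 and 3295 to 6329, and a line left with 1 library was assumed to vary like the others. Knockout against parental was lowest without the parental library with Shld. Mutant degron against parental fell to 1126 without that library, and to 706 and 1009 without the mutant degron library with and without Shld. Wildtype degron against parental fell to 2010 without the parental library with Shld, and to 2601 and 2514 without the wildtype degron library with and without Shld. Between the degron lines the count was 3295 and 3363 without a mutant degron library and 3883 and 3730 without a wildtype degron library, in the same order. Withdrawal counts in the knockout, mutant and wildtype degron lines, 24, 24 and 2, became 43, 47 and 26 with a pseudocount of 0.1, and 350, 317 and 0 with no filter (1847 loci at an unadjusted p below 0.05 for the last). They became 37 and 8 in the degron lines with a pseudocount of 5, 13 in the wildtype degron line with a minimum mean of 5, and 14 in the knockout line with quantile normalization. The cause was not tested. Fitting the degron libraries alone and leaving out both knockout libraries were chosen after seeing the data. The labels pair libraries by Shld state only. With Shld state as a covariate the 4 line counts were 4487, 2674, 4848 and 5820, and no call on the 5 genes changed. Unknown depth limits the levels near 0 of NPR3 and SCRG1.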

Other observations

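The 5 genes were set beside other large gains of the knockout line, a set chosen after the data were seen. There were 56 tested loci with a knockout level of at least 5 in both libraries and at least 5 times the higher parental library, the 5 genes among them. Between the mutant and the wildtype degron line, which share no library with the contrast behind that choice, 47 of the 56 (83.9%) were called higher and 1 lower (limma), beside 21.6% and 24.2% of all loci. The median difference was 1.67 in log2(value + 1), against -0.004 over all loci. The 5 genes, at 2.73 to 5.17, all lay above that median. The 56 loci were selected for a large difference between 2 lines, so the share over all loci is not a matched baseline. As the 5 genes were themselves picked as large rises of the knockout line, their place in the set and its count are descriptions only.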
